A study of Mus musculus with 6 samples.

Results

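The genes described here are 9 transcription factors of the endothelial lineage, *Erg*, *Fli1*, *Ets1*, *Ets2*, *Sox7*, *Sox17*, *Sox18*, *Foxq1* and *Foxf2*. They were picked by gene symbol, with earlier results of these data known, from the 23183 symbols with a value in every library, and all 9 had a mean of at least 1 FPKM (fragments mapped to the exons of a gene, divided by their length and by the total mapped), the minimum for a gene to be tested. In brain microvessels they ranged in WT mice from 10.2 ± 0.919 FPKM for *Sox7* to 51.7 ± 9.18 FPKM for *Sox18* (SD, n = 3). After adjustment, 0 of the 9 factors and 0 of the 14247 genes tested passed the test between KO and WT mice. *Ets1* was the only one of the 9 whose KO libraries all lay below all WT libraries, with a mean of 23.3 ± 3.42 FPKM in KO mice against 31.5 ± 3.04 FPKM in WT mice (SD, n = 3 each), where 5.7% of all genes tested had all KO libraries lower and 11.1% had no overlap in either direction.

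RNA was isolated from brain microvessels of 3 WT and 3 KO mice of C57BL/6 background, and 1 library was sequenced per mouse. All mice carried TEK-cre. WT mice were TEK-cre, *Crif1*+/+ and TEKCRIF1 KO mice were TEK-cre, *Crif1* flox/flox, so that the Cre itself was shared by both groups. No treatment was given according to the labels, and neither the age nor the sex of these mice is given in the sources used here. *Tek* is transcribed in endothelial cells and in part of the blood lineage, so a *Tek*-driven Cre can also delete its target in blood cells. The comparison of KO with WT addresses which transcripts differ in vessels after endothelial deletion of CRIF1, a mitochondrial protein needed to make the subunits of oxidative phosphorylation.

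ETS factors bind a GGAA core through a winged helix-turn-helix domain, and ERG and FLI1 keep endothelial genes such as *Cdh5* (VE-cadherin) active. The SOXF factors SOX7, SOX17 and SOX18 bend DNA through a high-mobility-group box and act in arterial and lymphatic specification, partly in place of each other. FOXF2 acts in the vessel wall of the brain, where it is also made by pericytes, and FOXQ1 is enriched in brain endothelium. Microvessel RNA is a mixture of cells, so a lower level can come from fewer cells of a type or from less RNA per cell, and these cannot be told apart here.

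Relatives with nearly identical sequence can share reads, so the most alike coding stretches of the ETS and forkhead pairs are shown first, 5′ to 3′ on the coding strand of GENCODE M21 (GRCm38, the build called mm10 in the labels). Capitals mark bases that are identical in the pair, and each stretch is 90 bases long and lies in 1 exon.
*Erg* and *Fli1* were the most alike of the 3 pairs compared, with 82 of 90 identical bases (91.1%) and a longest run of 22, at chr16:95361109-95361198 and chr9:32424088-32424177 (both minus strand).
Erg: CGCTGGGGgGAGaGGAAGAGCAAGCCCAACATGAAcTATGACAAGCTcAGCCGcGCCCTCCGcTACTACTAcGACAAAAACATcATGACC
Fli1: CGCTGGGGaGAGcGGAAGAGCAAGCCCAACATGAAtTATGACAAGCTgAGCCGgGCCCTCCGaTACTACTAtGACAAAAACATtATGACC
*Ets1* and *Ets2* shared 77 of 90 bases (85.6%), with a longest run of 19, at chr9:32752810-32752899 and chr16:95717859-95717948 (both plus strand).
Ets1: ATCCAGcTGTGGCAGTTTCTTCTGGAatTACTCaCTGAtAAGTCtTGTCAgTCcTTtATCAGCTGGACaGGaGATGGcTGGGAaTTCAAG
Ets2: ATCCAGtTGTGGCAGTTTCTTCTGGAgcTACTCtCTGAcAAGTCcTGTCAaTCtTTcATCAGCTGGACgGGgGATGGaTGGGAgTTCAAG
The forkhead pair shared 73 of 90 bases (81.1%), with a longest run of 32, at chr13:31559355-31559444 and chr13:31626473-31626562 (both plus strand).
Foxq1: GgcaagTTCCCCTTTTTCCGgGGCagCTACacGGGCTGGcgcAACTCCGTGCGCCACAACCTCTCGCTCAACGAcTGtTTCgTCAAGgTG
Foxf2: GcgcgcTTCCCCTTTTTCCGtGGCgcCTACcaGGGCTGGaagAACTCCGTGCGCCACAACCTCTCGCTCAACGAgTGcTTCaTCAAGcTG
The longest transcript of each of the 9 genes shared no window of 100 bases, the read length, on its own strand with a transcript of another gene (0 windows for each of the 9). Other transcripts of the 9 and genes on the opposite strand were not covered by this count.

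The 9 genes include 3 pairs of neighbours. *Fli1* (chr9:32422204-32542861) and *Ets1* (chr9:32636221-32757820) lie 93.4 kb apart, *Erg* (chr16:95359169-95586593) and *Ets2* (chr16:95702075-95721051) lie 115.5 kb apart, and *Foxq1* (chr13:31556134-31560976) and *Foxf2* (chr13:31625816-31631403) lie 64.8 kb apart, with 0 protein-coding genes between the members of any pair. *Sox17* (chr1:4490931-4497354), *Sox18* (chr2:181669836-181671640) and *Sox7* (chr14:63943673-63950732) each stand on a chromosome of their own. Other annotated genes overlap 5 of the 9 gene spans, introns included. On the opposite strand, *Gm27201* overlaps *Fli1* over 8546 bases, *A530084C06Rik* overlaps the single exon of *Foxq1* over 3200 bases, *Gm27240* overlaps *Ets1* over 1520 bases, *Gm37587* overlaps *Sox17* over 804 bases and *Gm27516* overlaps *Foxf2* over 98 bases. On its own strand *Fli1* is overlapped by 5 further genes, over 107 to 3045 bases each, which strand would not separate. The library kit keeps strand, but whether counting used it is not given in the sources used here, so reads of such overlaps may have entered the values.

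RefSeq promoter windows (GRCm38.p6, 250 bases before to 50 bases after a start) were matched for 3 of the 9 genes, at 5 starts, those of *Erg*, *Ets2* and *Foxf2*. The ETS core GGAA, the SOX core ACAAT and the forkhead core TAAACA were searched on both strands. The window of an internal *Erg* start at chr16:95459299-95459598 (minus strand) is shown because it was the only one of the 5 that held the cores of all 3 families, in capitals, with no overlap between matches.
Erg: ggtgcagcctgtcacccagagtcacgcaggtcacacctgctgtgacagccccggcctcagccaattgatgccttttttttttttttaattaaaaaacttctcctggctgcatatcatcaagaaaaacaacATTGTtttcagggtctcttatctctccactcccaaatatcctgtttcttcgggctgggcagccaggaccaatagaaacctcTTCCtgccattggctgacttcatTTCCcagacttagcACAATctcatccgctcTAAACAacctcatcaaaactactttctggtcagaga
It held GGAA 2 times, ACAAT 2 times and TAAACA 1 time, reading both strands. Of 32851 promoters of this length, 96.0% held GGAA, 31.0% held ACAAT and 13.4% held TAAACA, so nearly every promoter has a GGAA match. GGAA was the only one of the cores found at the other starts, 4 and 1 times at the other *Erg* starts, 1 time at *Ets2* and 2 times at *Foxf2*. These matches describe letters and are not sites shown to be bound.

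Ordered by level per length in WT mice, *Sox18* (51.7 FPKM) stood above *Ets1* (31.5 FPKM), and *Ets1* stood above *Erg* (24.8 FPKM), without overlap between neighbours. *Erg* and *Foxq1* (23.0 FPKM) overlapped. *Foxf2* (17.3 FPKM), *Fli1* (16.1 FPKM), *Sox17* (15.2 FPKM) and *Ets2* (14.4 FPKM) formed a run in which each overlapped the next, and *Sox7* (10.2 FPKM) was below *Ets2* in every WT library. In KO mice *Sox18* (58.0 FPKM) was again highest and *Sox7* (9.12 FPKM) lowest by mean, and every neighbouring pair below *Sox18* overlapped. *Ets1* came after *Erg* in KO mice, at 23.3 against 25.4 FPKM, with overlapping ranges. All 9 lay above the median gene tested, between the percentiles 50.3 (*Sox7*) and 91.1 (*Sox18*) of the 14247 genes.

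**Figure D1:**
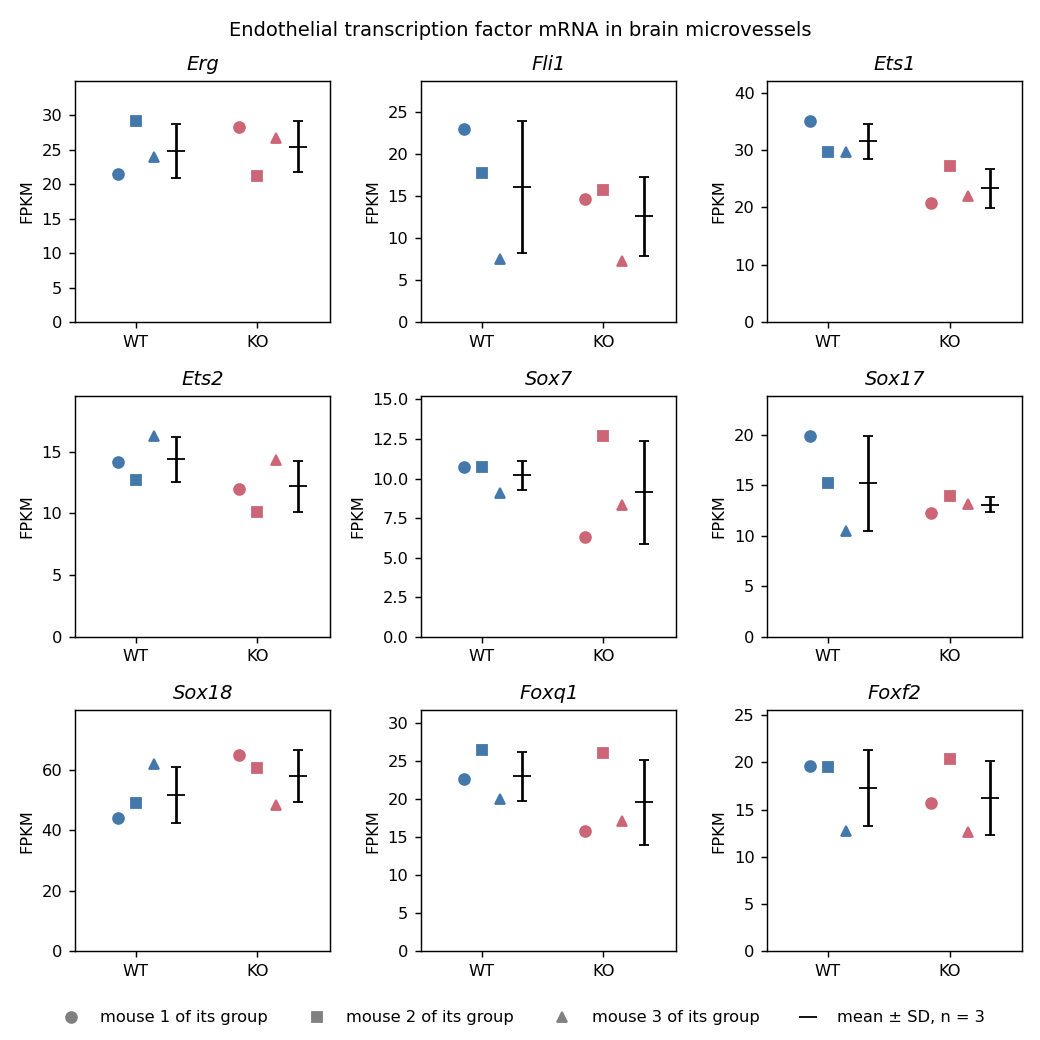
FPKM of each of the 9 factors (y axis, linear, from 0) in the 3 WT and the 3 KO libraries (x axis); each symbol is 1 mouse, and the bar gives the mean ± SD (n = 3). In the *Ets1* panel the highest KO library (27.2 FPKM) lies below the lowest WT library (29.7 FPKM), whereas the groups overlap in the other panels.

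Of the ETS factors, *Ets1*, the founding ETS gene and one made in endothelium and lymphocytes, was at 35.0, 29.7 and 29.7 FPKM in WT 1 to WT 3 and at 20.8, 27.2 and 22.0 FPKM in KO 1 to KO 3. The KO libraries were all lower, and KO 2 came closest to the WT libraries. The KO mean was 74.1% of the WT mean. On the log2(FPKM + 1) scale the difference was -0.42 (SE 0.20, 95% interval -0.86 to 0.02), with an adjusted p of 0.841 and an unadjusted p of 0.0578 by limma. The exact permutation p was 0.1 (two-sided), the smallest that 3 against 3 mice allow. Markers of lymphocytes, 8 in number, summed to 7.92, 5.12 and 4.51 FPKM in WT 1 to WT 3 and 10.3, 6.38 and 3.65 FPKM in KO 1 to KO 3. The 3 highest were the B cell genes *Cd79a* (1.14 to 8.08 FPKM) and *Cd79b* (0.285 to 2.51 FPKM, lower in every KO library) and the T cell gene *Cd3g* (0 to 1.21 FPKM). The other 5 were at 0.931 FPKM or less in every library, and 1 of them, *Nkg7*, was listed at 0 in all 6. The part of lymphocytes in the *Ets1* level was not tested.

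*Erg*, which is largely restricted to endothelium among the cells of a vessel, was at 21.4, 29.1 and 23.9 FPKM in the WT libraries and at 28.3, 21.2 and 26.6 FPKM in the KO libraries. Its groups overlapped almost fully, and WT 2 and KO 2 held the highest and lowest values. Its log2 difference was 0.03 (95% interval -0.43 to 0.50, limma adjusted p = 0.991, exact permutation p = 1.0). *Erg* also had the smallest range of the 9 over the 6 libraries, 0.44 on the log2 scale. *Fli1*, its closest relative here, had the largest, 1.54. *Fli1* is also made in megakaryocytes and other blood cells.

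*Fli1* was at 23.0, 17.8 and 7.56 FPKM in the WT libraries and at 14.7, 15.8 and 7.23 FPKM in the KO libraries. Replicate 3 of each group was far below its 2 companions, and this spread within groups, a coefficient of variation of 48.7% in WT and 37.1% in KO mice, exceeded the difference between the means. The log2 difference was -0.28 with a wide interval, -1.17 to 0.61 (limma adjusted p = 0.949, exact permutation p = 0.5). It moved to -0.72 without WT 3, to 0.03 without WT 1 and to 0.05 without KO 3, so its direction turned on single libraries.

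*Ets2*, a target of growth factor signalling through RAS and MAP kinase, was at 14.2, 12.7 and 16.3 FPKM in the WT libraries and at 12, 10.1 and 14.3 FPKM in the KO libraries. KO 1 and KO 2 lay below every WT library and KO 3 lay among them. The log2 difference was -0.23 (95% interval -0.71 to 0.25, limma adjusted p = 0.903, exact permutation p = 0.3). In contrast to its neighbour *Erg* it kept a negative sign under the 18 alternatives tried, between -0.35 and -0.07.

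Of the SOXF factors, *Sox18*, which is mutated in the ragged mouse with its vascular and lymphatic defects, was at 44.1, 49.0 and 61.9 FPKM in the WT libraries and at 64.8, 60.6 and 48.5 FPKM in the KO libraries. It was the highest of the 9 in every library, and its groups overlapped, with KO 2 and KO 3 within the WT range. On the log2 scale KO exceeded WT by 0.17 (95% interval -0.30 to 0.64, limma adjusted p = 0.940, exact permutation p = 0.5). The estimate was positive under all 18 alternatives, from 0.06 to 0.36.

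*Sox17*, which acts in arterial identity upstream of Notch signalling, was at 19.9, 15.2 and 10.5 FPKM in the WT libraries and at 12.3, 13.9 and 13.2 FPKM in the KO libraries. The KO libraries all lay inside the WT range. The SD was 4.71 FPKM among WT libraries and 0.759 FPKM among KO libraries. KO differed from WT by -0.16 on the log2 scale (95% interval -0.71 to 0.39, limma adjusted p = 0.95, exact permutation p = 0.7), and it was 0.05 without WT 1. Smooth muscle markers, which come from arteries and arterioles, summed to 598 FPKM in WT 1 and 799 FPKM in KO 1 against 254 to 408 FPKM in the other libraries. *Sox17* was highest in WT 1 and lowest of the KO libraries in KO 1, and the part of vessel type in its level was not tested.

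*Sox7*, the SOXF gene active early in the blood and endothelial lineages, was at 10.7, 10.7 and 9.11 FPKM in the WT libraries and at 6.32, 12.7 and 8.31 FPKM in the KO libraries. The KO libraries lay on both sides of the WT libraries. KO 2 was the highest and KO 1 the lowest of all 6. KO differed from WT by -0.19 on the log2 scale (95% interval -0.77 to 0.40, limma adjusted p = 0.946, exact permutation p = 0.6), -0.43 without KO 2 and 0.02 without KO 1.

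Of the forkhead factors, *Foxq1* was at 22.7, 26.4 and 20.0 FPKM in the WT libraries and at 15.8, 26.1 and 17.1 FPKM in the KO libraries. KO 1 and KO 3 were below every WT library and KO 2 was near the highest of them. The log2 difference was -0.24 (95% interval -0.77 to 0.28, limma adjusted p = 0.917, exact permutation p = 0.3). Its neighbour *Foxf2* was at 19.6, 19.5 and 12.7 FPKM in the WT libraries and at 15.7, 20.4 and 12.6 FPKM in the KO libraries. Replicate 3 was the lowest in both groups, and the groups overlapped over nearly their whole range. The log2 difference of *Foxf2* was -0.09 (95% interval -0.64 to 0.47, limma adjusted p = 0.972, exact permutation p = 0.9). Pericyte markers summed to 1380, 1190 and 863 FPKM in the WT libraries and to 1020, 933 and 903 FPKM in the KO libraries. Both were lowest in replicate 3 of each group, and the part of pericytes in the *Foxf2* level was not tested.

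Counted over the 9 factors, 7 had a negative log2 difference, where 50.8% of the 14247 genes tested did, and their median was -0.19 against -0.01 for all genes tested. At an unadjusted limma p under 0.05 there were 0 of the 9, where 838 genes (5.88%) passed, 2.77% higher and 3.11% lower in KO mice, and at an adjusted p under 0.05 there were 0 of the 9 and 0 of all genes (0%). Non-overlapping groups were found for 1 of the 9, *Ets1*, where 11.1% of all genes had them, 5.7% with all KO libraries lower and 5.37% with all KO libraries higher. The share of the 9 without overlap was near that of all genes.

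**Figure D2:**
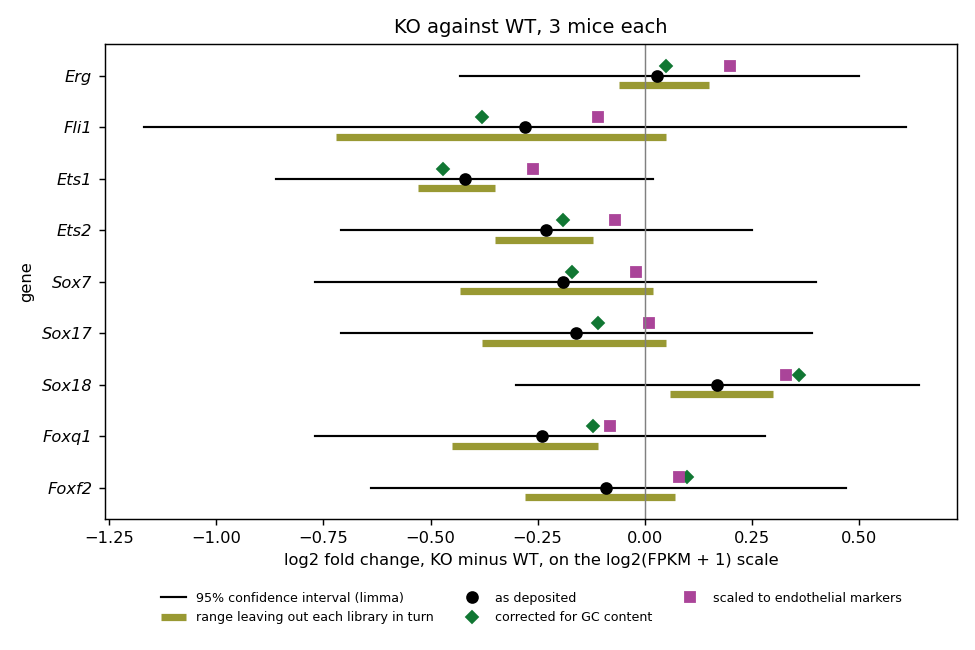
Log2 difference of KO from WT (x axis, on the log2(FPKM + 1) scale) for each of the 9 factors (y axis), with its 95% limma interval (line), the range when each library is left out in turn (thick bar), and the value after correction for GC content (diamond) and after scaling to endothelial markers (square). Every interval includes 0, and *Ets1* has the most negative value, -0.42.

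Base composition moved with the groups. Across 14171 genes, the deviation of a gene from its mean over the libraries had a Spearman correlation with GC content of 0.084, 0.312 and 0.151 in WT 1 to WT 3 and of -0.137, -0.247 and -0.027 in KO 1 to KO 3, given as a description since genes are not independent replicates. The transcripts of *Sox18* (60.9% GC) and *Foxf2* (59.8% GC) are rich in GC, and with this trend removed their log2 differences became 0.36 and 0.10. That of *Ets1* (47.3% GC) became -0.47, with an unadjusted limma p of 0.0319 and an adjusted p of 0.998. The direction of *Foxf2* thus depended on this correction.

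Transcript length moved with single libraries, with Spearman correlations of -0.295 in KO 1, 0.29 in KO 2 and -0.142 in KO 3, and of 0.016 to 0.05 in the WT libraries. *Ets1*, *Sox7* and *Foxq1* shared the same order in KO mice, highest in KO 2, then KO 3, then KO 1. Correction for length narrowed the range over the 6 libraries from 0.72 to 0.59 for *Ets1* and from 0.71 to 0.57 for *Foxq1*, on the log2 scale, and left that of *Sox7* at 0.92 after 0.91. Choroid plexus epithelium markers summed to 8980, 3030 and 10800 FPKM in KO 1, KO 2 and KO 3 and to 2970 to 3420 FPKM in WT mice, so the libraries with the lower *Ets1*, *Sox7* and *Foxq1* values among KO mice were those with more choroid plexus transcripts. The part of choroid plexus tissue in these values was not tested. Without KO 2, *Ets1* had a log2 difference of -0.53 and an unadjusted limma p of 0.0152, and *Foxq1* of -0.45 and 0.0465, with adjusted p values of 0.281 and 0.372.

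**Figure D3:**
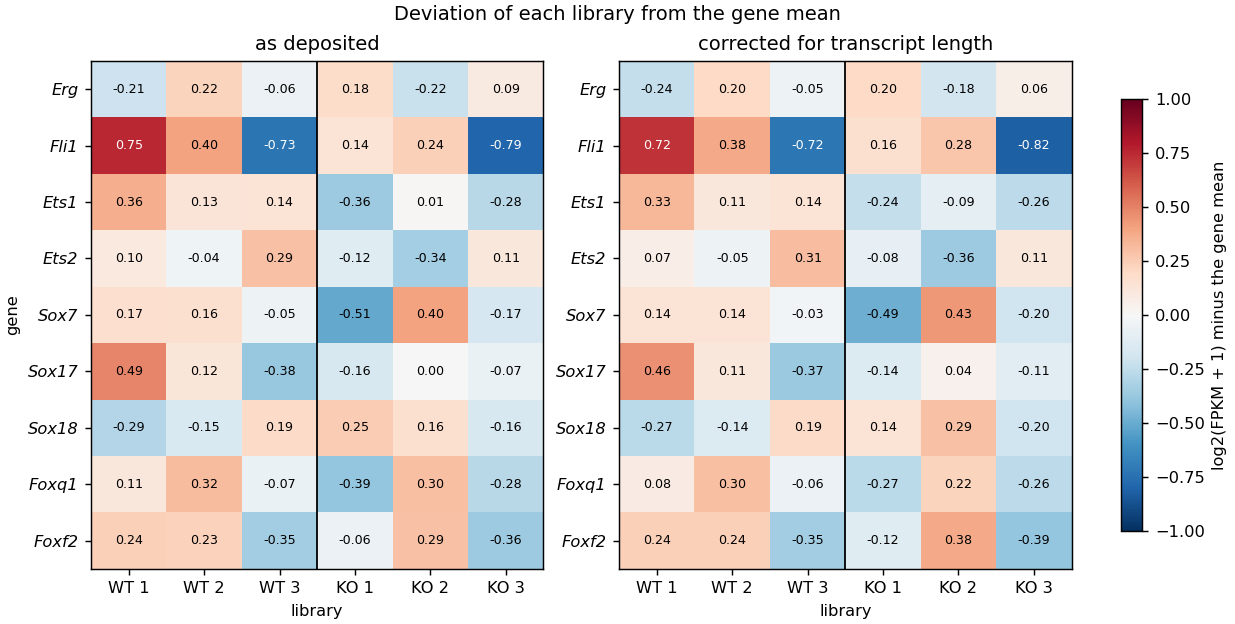
Deviation of each library (x axis) from the gene mean (colour, on the log2(FPKM + 1) scale) for the 9 factors (y axis), as deposited on the left and after removal of the transcript length trend on the right. *Fli1* has the largest deviations, from -0.79 in KO 3 to 0.75 in WT 1, and *Sox7* and *Foxq1* share their high KO 2 and low KO 1 values.

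Ratios between relatives of a family, taken within a library, do not depend on scaling between libraries. The *Erg* to *Fli1* ratio was 0.931, 1.64 and 3.16 in WT mice and 1.93, 1.34 and 3.69 in KO mice, and it varied more within each group than between them (log2 difference 0.33, exact permutation p = 0.7). The *Ets1* to *Ets2* ratio was 2.46, 2.33 and 1.82 in WT mice and 1.73, 2.68 and 1.53 in KO mice (log2 difference -0.19, exact permutation p = 0.6). *Sox18* exceeded both of its relatives in every library. The *Sox17* to *Sox18* ratio was 0.451, 0.311 and 0.169 in WT mice and 0.19, 0.229 and 0.271 in KO mice (log2 difference -0.33, exact permutation p = 0.5). The *Sox7* to *Sox18* ratio was 0.243, 0.218 and 0.147 in WT mice and 0.0975, 0.21 and 0.171 in KO mice (log2 difference -0.38, exact permutation p = 0.5). *Foxq1* was above *Foxf2* in all 6 libraries, with ratios of 1.15, 1.35 and 1.57 in WT mice and 1.01, 1.28 and 1.35 in KO mice (log2 difference -0.16, exact permutation p = 0.5). None of these 5 ratios separated the groups. Leaving out single libraries, the log2 difference ran from -0.10 (without WT 1) to 0.78 (without WT 3) for *Erg* to *Fli1*, and it was also negative without KO 3 (-0.07). It ran from -0.43 (without KO 2) to -0.02 (without KO 3) for *Ets1* to *Ets2* and from -0.72 (without WT 3) to -0.01 (without WT 1) for *Sox17* to *Sox18*. The range was -0.62 (without KO 2) to -0.07 (without KO 1) for *Sox7* to *Sox18* and -0.28 (without WT 1) to -0.03 (without KO 1) for *Foxq1* to *Foxf2*.

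Likeness between patterns was measured as the root mean square difference of centred log2 values over the 6 libraries. Among pairs of the 9 factors, *Sox7* and *Foxq1* were most alike (0.105), followed by the neighbours *Foxq1* and *Foxf2* (0.19) and by *Ets1* and *Foxq1* (0.194). Of all genes tested, *Ier5*, *Nmnat2* and *Sept6* were closest to *Ets1*, at 0.045 to 0.057 where the median gene was at 0.395. Those closest to *Ets2* were *2900097C17Rik*, *Wbp2* and *Aimp1*, at 0.044 to 0.053 (median gene 0.359). Those closest to *Foxq1* were *Nat14*, *Mast2* and *Acap3*, at 0.045 to 0.059 (median gene 0.41). These values are a description over 6 libraries, with no test.

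Other members of the same families were counted by list. Of 22 other ETS genes 16 were tested, with a median log2 difference of -0.04 and 10 negative and 6 positive values, where 50.8% of all genes were negative. At an unadjusted limma p under 0.05 there were 0 of the 16, where 5.88% of all genes passed. The 3 with the highest level, *Erf*, *Elk3* and *Elf2*, differed by 0.07, -0.04 and -0.11. *Etv6*, picked out after its values were seen, was the only one of the 16 without overlap, where the groups of 11.1% of all genes did not overlap. It was at 9.86, 8.91 and 7.0 FPKM in WT and 6.22, 5.44 and 6.14 FPKM in KO mice (adjusted p = 0.841 by limma). Of 17 other SOX genes 13 were tested, with a median of 0.0, 6 negative and 7 positive. At an unadjusted p under 0.05 there were 0 of the 13, and 0 had groups without overlap, where 5.88% and 11.1% of all genes did. *Sox4*, *Sox9* and *Sox2*, made mainly by progenitors and glia in the brain, differed by -0.02, 0.40 and 0.09.

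Of 42 other forkhead genes 24 were tested, with a median log2 difference of -0.27, and 19 were negative, where 50.8% of all genes were. The median was -0.09 without WT 2, -0.06 without a filter on level and -0.10 when scaled to endothelial markers. 1 of the 24 had an unadjusted limma p under 0.05, where 5.88% of all genes did. It was *Foxc2*, a factor of arterial and lymphatic development, at 31.9, 27.4 and 24.3 FPKM in the WT libraries and 14.6, 15.2 and 15.3 FPKM in the KO libraries. Every KO library of *Foxc2* was below every WT library, and the KO mean was 53.9% of the WT mean. Its log2 difference was -0.84 (limma unadjusted p = 0.00141, adjusted p = 0.841, exact permutation p = 0.1). *Foxk2*, picked out after its values were seen, was the other one without overlap (-0.38). The groups of 2 of the 24 thus did not overlap, where those of 11.1% of all genes did not, 5.7% with all KO libraries lower. *Foxj1*, *Foxc1* and *Foxp1*, the highest of the list, differed by -0.03, -0.33 and 0.05. *Foxc1* and *Foxc2* are also made by meningeal and mural cells, and 6 of 6 fibroblast markers had a negative log2 difference. Their part in these values was not tested.

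Of 23 other endothelial transcription regulators 22 were tested, with a median of -0.08, 12 negative and 10 positive. *Klf2* and *Klf4*, which respond to blood flow, were the 2 at an unadjusted limma p under 0.05, where 5.88% of all genes were. *Klf2* was at 58.2, 48.5 and 40.5 FPKM in WT and 30.8, 31.0 and 29.8 FPKM in KO mice, a log2 difference of -0.65 (limma unadjusted p = 0.00822, adjusted p = 0.841). *Klf4* was at 24.2, 27.5 and 22.3 FPKM in WT and 13.8, 13.9 and 19.5 FPKM in KO mice, a log2 difference of -0.63 (limma unadjusted p = 0.0138, adjusted p = 0.841). Both had all KO libraries below all WT libraries, where 5.7% of all genes did. The unadjusted p was under 0.05 in 17 of 18 alternatives for *Klf2* and in 15 of 18 for *Klf4*. *Lmo2*, a bridging cofactor of GATA and TAL1 complexes, stood the other way, at 46.3, 46.9 and 42.8 FPKM in WT and 60.5, 56.8 and 54.8 FPKM in KO mice (0.33, limma unadjusted p = 0.0915, adjusted p = 0.841). *Epas1*, the highest of the list, differed by -0.08.

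Genes commonly described as targets were counted in the same way. Of 18 endothelial genes described as targets of ERG, FLI1 or ETS1, all 18 were tested, 15 were negative and 3 positive, where 50.8% of all genes were negative, and the median was -0.16. The median was -0.09 without WT 2 and -0.34 without WT 3. It was 0.00 when scaled to endothelial markers, but 9 of the 18 genes are themselves among those markers, so this scaling draws it toward 0 by construction. *Cdh5*, which encodes the adherens junction protein VE-cadherin, was the 1 with an unadjusted limma p under 0.05, where 5.88% of all genes had one. It was at 86.7, 92.4 and 91.3 FPKM in the WT libraries and at 50.8, 42.5 and 38.1 FPKM in the KO libraries, and every KO library was far below every WT library. Its log2 difference was -1.03 (SE 0.19, limma unadjusted p = 0.000303, adjusted p = 0.841, exact permutation p = 0.1), and the unadjusted p stayed under 0.05 in 18 of 18 alternatives, with values between -1.14 and -0.87. *Cldn5*, *Eng* and *Pecam1*, the highest of the list, differed by -0.14, -0.40 and 0.09. *Rhoj* (-0.38) was the other gene with all KO libraries lower and *Emcn* (0.37) the 1 with all KO libraries higher, both picked out after their values were seen. The groups of 3 of the 18 thus did not overlap, where those of 11.1% of all genes did not.

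Of 11 genes described as SOXF targets, of which *Cdh5*, *Cldn5*, *Dll4*, *Kdr*, *Robo4* and *Tek* also stand in the previous list, all 11 were tested, 10 were negative and 1 was positive, where 50.8% of all genes were negative, with a median of -0.19 (-0.03 when scaled to endothelial markers, among which 4 of the 11 stand). *Notch1*, an arterial receptor, was the other gene beside *Cdh5* with an unadjusted limma p under 0.05, so that 2 of the 11 had one, where 5.88% of all genes did. It was at 15.3, 18.1 and 14.9 FPKM in the WT libraries and 9.39, 12.9 and 11.1 FPKM in the KO libraries, without overlap (log2 difference -0.50, limma unadjusted p = 0.0378, adjusted p = 0.841). Its unadjusted p was under 0.05 in 8 of 18 alternatives. *Kdr* differed by -0.33. *Cdh5* and *Notch1* were also the 2 of the 11 without overlap, where 11.1% of all genes had none. No other described target had an unadjusted p under 0.05.

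**Figure D4:**
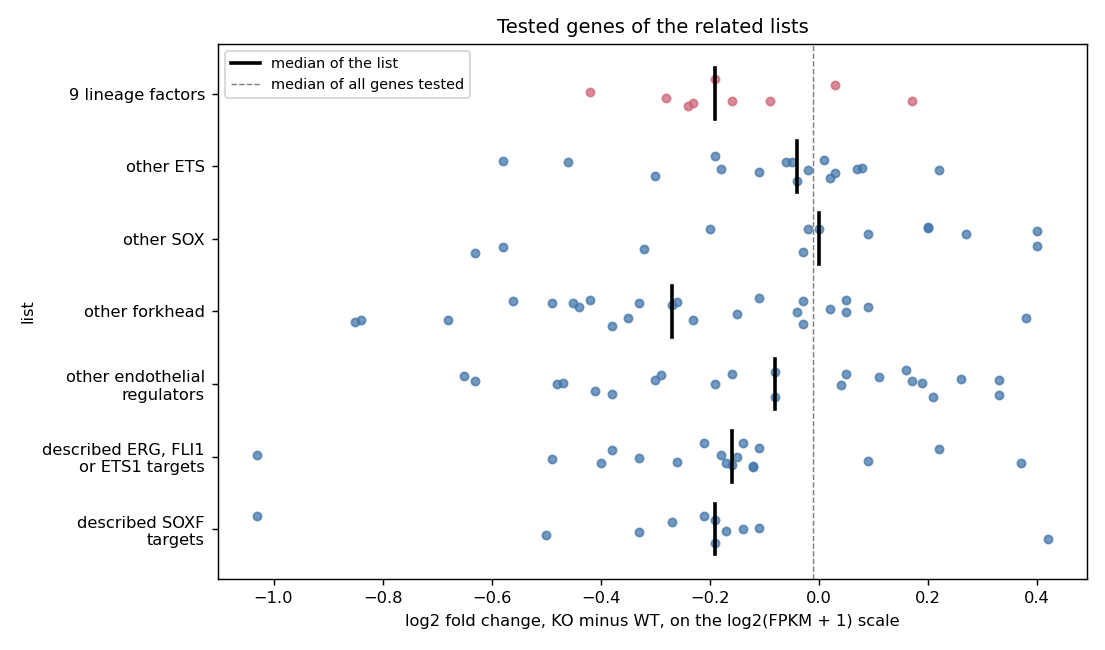
Log2 difference of KO from WT (x axis, on the log2(FPKM + 1) scale) of every tested gene (points) in the 9 factors and 6 related lists (y axis), with the list median (thick bar) and the median of all genes tested (dashed line). The forkhead list has the lowest median, -0.27, and *Cdh5*, at -1.03, is the leftmost point in both lists of described targets.

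The label of the tissue was checked against marker lists. All 14 endothelial markers were tested, with a median of -0.13, and summed to 1200 to 1670 FPKM in WT and 1080 to 1440 FPKM in KO mice. The 14 include *Cdh5*, with a log2 difference of -1.03, and leaving it out of the scaling was not tried. Scaling the libraries to the mean of all 14 markers shifted the median of all genes to 0.159 and added a like amount to each factor. *Ets1* then differed by -0.26, with overlapping groups, *Sox17* by 0.01 and *Foxf2* by 0.08. Under this scaling 12.3% of the genes at an unadjusted p under 0.05 were lower in KO mice, against 52.9% as deposited. Fibroblast markers summed to 1460 to 2210 FPKM in WT and 980 to 1370 FPKM in KO mice (median -0.36, 6 of 6 negative), and microglia and macrophage markers to 251 to 320 and 201 to 250 FPKM (median -0.32). The medians were -0.29 for pericyte, 0.38 for smooth muscle, -0.42 for astrocyte, -0.44 for oligodendrocyte, -0.24 for neuron, -0.35 for erythroid and 0.97 for choroid plexus markers. Of the lymphocyte markers 2 of 8 were tested (median -0.17). *Gadd45gip1* (*Crif1*), the deleted gene, was at 18.8, 15.3 and 16.5 FPKM in WT and 10.8, 7.54 and 10.4 FPKM in KO mice (log2 difference -0.77, limma adjusted p = 0.841), lower in every KO library. The part of these marker differences in the values of the 9 factors was not tested. Depth was estimated at 8900000 to 11500000 fragments in WT and 6500000 to 11800000 in KO libraries, and the least covered factor, *Sox7*, had at least 167 estimated fragments in a library, a counting error of 7.7%.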

How the data were processed

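Microvessel RNA of 6 mice, 3 WT and 3 TEKCRIF1 KO, was read as paired ends after TRIzol extraction and a NEBNext Ultra II Directional library preparation. The authors checked the reads with FastQC, trimmed them with FASTX_Trimmer and BBMap, mapped them with TopHat (mm10 per the labels) and deposited FPKM values for 23183 gene symbols in each library. No normalization between libraries beyond FPKM is stated, and the counting tool and its strand setting are not given in the sources used here. The authors used DESeq2 to find differentially expressed genes, and the values here are FPKM only.

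The genotype label set the group of each library. In R 4.3.3, limma 3.58.1 was fitted to log2(FPKM + 1) with its variance trend switched on. The 14247 genes averaging 1 FPKM or more were tested, and Benjamini-Hochberg adjustment ran over all of them. This scale understates changes of low genes. Single genes were also tested by a two-sided exact permutation test (scipy 1.17.1, Python 3.11.15), whose smallest p is 0.1. The p-values set the difference between the groups against the spread between these libraries. Depth was estimated from the spacing of values under 0.3 FPKM and the lengths of 4687 genes with 1 transcript. Loci, lengths and GC content came from GENCODE M21 and promoters from RefSeq. The script was tested on simulated data. 1 sequence comparison is not reported here.

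The 9 factors and the lists were chosen with earlier results of these data known. From each other list the text names genes that had both an unadjusted p under 0.05 and groups without overlap, and the 3 with the highest mean, marker lists being given mainly as sums and medians. For the 3 factors with the smallest p it also names the 3 genes with the most alike pattern. The alternatives were no filter, a filter at 5 FPKM, a pseudocount of 0.1, quantile normalization, a trimmed-mean factor, scaling to the median, scaling to endothelial markers, no trended variance, a replicate block without and with GC correction, corrections for GC content and length (loess, span 0.3), and leaving out each library.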

Additional observations from a re-analysis of the deposited data

How the results depend on the processing

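None of the 9 factors passed an adjusted limma p of 0.05 under any of the 18 alternatives, with a lowest adjusted p of 0.281 (*Ets1* without KO 2). *Ets1*, *Ets2* and *Foxq1* stayed negative and *Sox18* positive under all 18. *Ets1* ranged from -0.53 to -0.26, with an unadjusted p under 0.05 without a filter (0.0356), with GC correction (0.0319) and without KO 2 (0.0152); quantile normalization and scaling to endothelial markers made its groups overlap. The other 5 factors changed sign. *Sox17* was at 0.01 when scaled to endothelial markers, and *Foxf2* at 0.08 then and at 0.10 with GC correction, without or with the replicate block. With each library left out, *Erg* ranged from -0.06 to 0.15, *Fli1* from -0.72 to 0.05, *Sox7* from -0.43 to 0.02, *Sox17* from -0.38 to 0.05 and *Foxf2* from -0.28 to 0.07. 1 of the 9 had an unadjusted p under 0.05 without a filter, where 1033 of 18806 genes did. The same number had one with GC correction, where 678 of 14171 genes did. With a library left out, 0 to 2 of the 9 had one, and the 2 were found without KO 2. Of all 14247 genes, 450 (without WT 2) to 1871 (without KO 2) then had an unadjusted p under 0.05, with 510 without KO 1. For an adjusted p the numbers ranged from 0 to 4, with 1 without WT 3 and 4 each without KO 2 and KO 3. Related listed genes at an unadjusted p under 0.05 numbered 5 as deposited and 3 (without WT 2) to 12 (without KO 2) with a library left out. Those were also the left-out libraries with the fewest and the most such genes over all tested.

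Scaling to endothelial markers moved the list medians to 0.12 (other ETS), 0.17 (other SOX), -0.10 (other forkhead), 0.08 (other regulators), 0.00 (ERG, FLI1 or ETS1 targets) and -0.03 (SOXF targets), since it shifts all genes. The forkhead median was -0.06 without a filter, where more genes are tested, and -0.33 to -0.09 with a library left out; that of the other SOX genes was then -0.14 to 0.07 and that of the ERG, FLI1 or ETS1 targets -0.34 to -0.09. Leaving out a library moved 2 factors in the WT order of levels and 2 to 4 in the KO order. The cause of these changes was not tested.

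Replicate numbers, taken from the sample titles, were not treated as pairs. Column headers carry other numbers, which were not tested. Deviations of same-numbered libraries correlated at 0.002 to 0.037 over 14247 genes, and 1 of 3 WT libraries was most like the KO library of its own number. With the replicate block 871 genes had an unadjusted p under 0.05 (838 without it) and *Ets1* had 0.09, and no call on the 9 changed. With block and GC correction 42.2% of the genes at an unadjusted p under 0.05 were lower in KO mice. *Ets1* then had an unadjusted limma p of 0.0532, against 0.0319 with GC correction alone. Depth limits *Sox7* most.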
